A study of Mus musculus with 36 samples.

Results

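The guanylate-binding proteins (Gbp genes) and the immunity-related GTPases (Irg genes) were followed here in the spleens of 36 mice. The members are 9 genes, Gbp2b, Gbp2, Gbp3, Gbp6, Gbp7, Irgm1, Irgm2, Igtp and Iigp1, and every probe set that names only 1 of them was taken. That gave 13 of the 45037 probe sets that are not array controls, 8 for the 5 Gbp genes and 5 for the 4 Irg genes, out of 18193 named genes in all. They were selected on measured values of these same mice, namely the separate levels of Gbp2b, the correlation of the members over the mice, and their levels in the groups. Those values are therefore given as a description.

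The 36 animals were F2 mice of 4 months, 18 with arthritis (ART1 to ART18) and 18 without (NON1 to NON18), and each array carries total RNA of a single spleen on an Affymetrix mouse genome array. The series title places the arthritic animals in a setting of missing interleukin 1 receptor antagonist, the natural inhibitor that keeps interleukin 1 off its receptor, and it names the search for subpopulations among them as the purpose. The labels give no genotype, parental strain, sex, treatment or arthritis score for any mouse, so whether all 36 share the deficiency is not known here. Levels are written below as log2(intensity + 16), where intensity is the deposited signal of a probe set, and they are compared between mice and never between probe sets. A whole spleen holds many cell types, so a higher level from more cells of a type cannot be told apart from more RNA per cell.

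Both families belong to the defence that a cell mounts inside itself after interferon. Gbp proteins bind GTP, assemble on the vacuoles and surfaces of intracellular pathogens and help to break them open or to bring inflammasomes to them. Irg proteins fall into effectors such as Iigp1 (also called Irga6), which coat the vacuole and disrupt it, and regulators, Irgm1, Irgm2 and Igtp (also called Irgm3), which hold the effectors inactive on the cell's own membranes. Interferon gamma acts through its receptor and the kinases Jak1 and Jak2, and many of its target genes carry GAS elements, while targets of type I interferon typically carry ISRE elements.

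Because the members are known as interferon targets and were described together, the stretches of their promoters that hold such elements are printed here. The sequences are from RefSeq on GRCm38.p6, read 5′ to 3′ along the strand of the gene, with matches to GAAA, any 2 bases and GAAA (ISRE) or TTCNNNGAA (GAS), on either strand and with no overlap between the kinds, in capitals. The stretches are chr3:142594685-142594739 (plus strand) for Gbp2b, chr3:142620579-142620633 (plus) for Gbp2, chr3:142559974-142560034 (plus) for Gbp3, chr3:142530249-142530312 (plus) for Gbp7, chr11:48871421-48871475 (minus) for Irgm1, chr11:58214888-58214942 (plus) for Irgm2 and chr11:58199497-58199551 (plus) for Igtp.
Gbp2b: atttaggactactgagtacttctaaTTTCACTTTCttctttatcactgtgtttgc
Gbp2: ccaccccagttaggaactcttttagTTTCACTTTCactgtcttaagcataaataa
Gbp3: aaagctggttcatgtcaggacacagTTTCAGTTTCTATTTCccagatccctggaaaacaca
Gbp7: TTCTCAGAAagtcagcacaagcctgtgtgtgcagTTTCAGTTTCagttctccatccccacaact
Irgm1: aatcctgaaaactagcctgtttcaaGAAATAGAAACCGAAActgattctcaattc
Irgm2: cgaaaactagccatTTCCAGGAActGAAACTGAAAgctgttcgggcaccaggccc
Igtp: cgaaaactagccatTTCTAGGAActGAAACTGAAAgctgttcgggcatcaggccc

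Within the 250 bases before the transcription start, ISRE letters occurred in 7 of the 7 members searched, against 2.98% of 32851 promoters of the same length. In Gbp2b they begin 137 bases before the start, in Gbp2 59 and in Gbp7 53. Gbp3 and Irgm1 hold 2 overlapping matches each, while a second listed promoter of Gbp3 holds none. GAS letters were found in 3 members, Gbp7, Irgm2 and Igtp, against 7.02% of promoters, and Gbp7 has a further match 106 bases before its start, outside the printed stretch. The promoters of Irgm2 and Igtp, which are neighbours on chromosome 11, carry the GAS and ISRE letters side by side, 75 and 64 bases before the start in Irgm2 and 45 and 34 in Igtp. A match is a string of letters and was not tested as a binding site. Gbp6 and Iigp1 were not searched.

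Median array intensities ranged from 110.6 to 183.2, and precision is limited by the number of arrays. The hybridisation control probe sets, which read RNA added to every sample, put the arrays into 3 clusters, A with 9 arthritic and 4 non-arthritic mice, B with 6 and 10, and C with 3 and 4. The labels name no batch, so the clusters are a description of the arrays, and for the members the within-cluster differences are given beside the pooled ones. For the pathway and marker lists the value with the cluster as a block is given. The summed level of pancreas acinar markers exceeded its limit of 10.4 on the log2 scale in 3 spleens, with 15.1 in ART8, 15.7 in NON5 and 14.3 in NON6. Spleen markers were well measured, with median summed levels of 14.7 in arthritic and 14.7 in non-arthritic mice for B cells and 14.9 in each group for red pulp macrophages. All 13 member probe sets passed the filter on low values, which kept 27022 probe sets.

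Gbp2b, a Gbp that was first named Gbp1 in the mouse, split the mice into a low and a high set. The 10 mice of the low set ran from 4.65 over a median of 6.30 to 7.19, and the 26 of the high set from 8.48 over 9.21 to 9.94. In intensity the low set covered 9.10 to 130.2 with a median of 64.2, and the high set 340.6 to 964.7 with a median of 574.6. The sets did not overlap and left a gap of 1.29 between 7.19 in NON16 and 8.48 in NON18, and their means lay 5.71 pooled SDs apart. A set was called where the largest gap with at least 5 mice on each side was at least 0.5 and the means lay at least 5 SDs apart. That rule called 76 of 27022 probe sets (0.281%), and Gbp2b alone among the 13 of the members.

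The low set held ART5, ART18, NON4, NON6, NON7, NON11, NON12, NON13, NON14 and NON16. It thus held 2 of 18 arthritic and 8 of 18 non-arthritic mice. By spike-in cluster it held 2 of 13 mice in A, 6 of 16 in B and 2 of 7 in C. The ratio of 3 prime to 5 prime Gapdh signal, a measure of RNA quality, ran from 0.679 to 1.13 in the low set and from 0.684 to 1.16 in the high set, so the sets overlapped in it. Marker lists overlapped between the sets as well, with medians of the summed dendritic cell level at 11.6 in the low and 11.8 in the high set and of the B cell level at 14.5 and 14.8. The medians lay farther apart for NK cells, at 10.76 and 11.21, and for neutrophils, at 15.92 and 15.57. Only 2 of 27022 probe sets did not overlap between these sets, and 1 of them was Gbp2b, which defines the sets. Overlap therefore does not show that their cell content was alike. That content was not tested.

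Gbp7, which lies in the same group of Gbp genes on chromosome 3 and encodes a protein of the same family, followed Gbp2b. In its representing probe set, the one with the highest mean, the low set of Gbp2b ran from 8.42 over 8.99 to 9.54 and the high set from 9.76 over 10.18 to 10.76. The sets did not overlap, with 0.22 between ART13 and NON16. Only 2 of 27022 probe sets (0.0074%) did not overlap between the same mice, this one and Gbp2b, whose own gap defined the sets. The largest gap of Gbp7 on its own, 0.23, was too small to be called. Within the high set the levels of both genes had a Pearson r of 0.69 and a Spearman rho of 0.67 over 26 mice, and within the low set r was 0.36 and rho 0.19 over 10 mice. Pooled over all mice r was 0.91, which includes the step between the sets.

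The second Gbp7 probe set differed. Its low-set mice lay between 7.01 and 8.05 around a median of 7.57, and the high-set mice between 5.78 and 9.57 around 8.51. The sets overlapped, and 0 of the 10 low-set mice reached the median of the high set. Its lowest value, 5.78, came from ART14, which had the highest value of the other probe set, 10.76. ART14 also had the highest Gapdh and actin 3 prime to 5 prime ratios of the 36 arrays, 1.16 and 2.74, and the lowest median intensity, 110.6. Their part in the disagreement was not tested, and over all mice the Gbp7 probe sets correlated at r = 0.41.

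**Figure D1:**
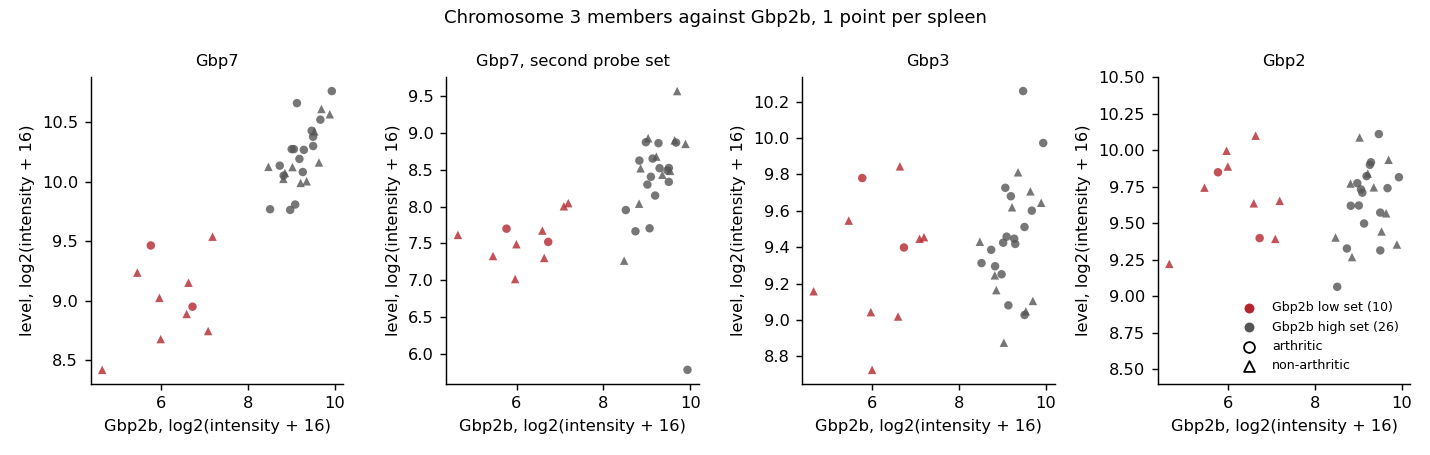
Level of Gbp7 (both probe sets), Gbp3 and Gbp2 on the y axis against Gbp2b on the x axis, all as log2(intensity + 16), with 1 point per spleen. Circles are arthritic and triangles non-arthritic mice, and red points are the 10 mice of the Gbp2b low set. The red points lie below all grey points for the representing Gbp7 probe set and among them for Gbp3 and Gbp2.

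The genes on either side of Gbp2b overlapped between its sets. Gbp3, the next gene before Gbp2b in the reference order, ran from 8.72 to 9.84 in the low and from 8.87 to 10.26 in the high set, with medians of 9.42 and 9.43. Gbp2, the next gene after it, ran from 9.22 to 10.10 and from 9.06 to 10.11, with medians of 9.70 and 9.72. In the second Gbp2 probe set (of a kind whose probes can also match other genes) the low set was higher at the median, 9.53 against 9.23, with overlap. Beyond the Gbp genes on that side, Kyat3, a transaminase gene, had r = 0.43 with Gbp2b, while Gtf2b, which encodes a general transcription factor, had 0.04.

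Gbp6 on chromosome 5 and the Irg genes on chromosomes 11 and 18 also overlapped between the sets. The medians of the low and high set were 9.79 and 9.67 for Gbp6, 10.32 and 10.36 for Irgm1, 10.87 and 10.67 for Irgm2, 11.74 and 11.90 for Igtp and 10.38 and 10.61 for Iigp1. For Gbp6, 6 of the 10 low-set mice exceeded the median of the high set, as did 6 for Irgm2, 4 for Irgm1, 1 for Iigp1 and 0 for Igtp.

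Of the genes outside the members, the highest correlation with Gbp2b belonged to Pdlim5, a gene for a scaffold protein of the actin skeleton that lies just before the Gbp genes on chromosome 3. Its r was 0.79 and its rho 0.90 over 36 mice, with 0.85 within the high set and -0.27 within the low set. That value is from its representing probe set, and the other 6 tested probe sets of Pdlim5 ranged from -0.07 to 0.65. Ugt8a on chromosome 3, which encodes an enzyme of galactolipid synthesis, followed with 0.74, and Atf6b on chromosome 17, a stress sensor of the endoplasmic reticulum, with 0.68. Within the low and high set these were 0.05 and 0.15 for Ugt8a and 0.22 and 0.05 for Atf6b. The most negative values were -0.67 for Frrs1 on chromosome 3, which encodes a ferric reductase, -0.63 for Retnla, which encodes a secreted product of alternatively activated macrophages, and -0.61 for Mkln1, a gene of a ubiquitin ligase complex. Within the low and high set Frrs1 stood at -0.75 and -0.49, Retnla at -0.43 and -0.09 and Mkln1 at -0.49 and -0.34.

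Of the 10 genes with the largest absolute r with Gbp2b, 5 lie on chromosome 3, which holds 4.92% of the genes, and of the 50 largest 6 do. The median absolute r was 0.18 over the 609 genes of chromosome 3 that are not members, against 0.17 for other chromosomes. Among the 20 tested genes nearest to Gbp2b on both sides, here with the members Gbp7, Gbp3 and Gbp2 included, the median absolute r was 0.14. These are descriptions of the same 36 mice, which share arrays and, for Gbp2b, the step between its sets.

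The members' levels were compared between arthritic and non-arthritic spleens, a comparison whose values were part of how the members were selected. Differences are arthritic minus non-arthritic on the log2 scale, tested with limma and adjusted over all 27022 probe sets by the Benjamini-Hochberg method. At an adjusted p under 0.05, 0 of the 13 member probe sets were called, where 13 of all probe sets (0.0481%) were, every one of them higher in arthritic mice. At an unadjusted p under 0.05, 5 of the 13 passed, all higher in arthritic mice, against 15.7% of all probe sets in either direction and 8.86% higher. Since the members were proposed with these levels known, nothing more is read from those shares. For the same reason the p of each member, here and below, is given as a description. By 1 probe set per gene, 7 of the 9 genes had a difference above 0, against 49.4% of 12427 genes, and the median difference was 0.17 against -0.0023 over all genes.

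**Figure D2:**
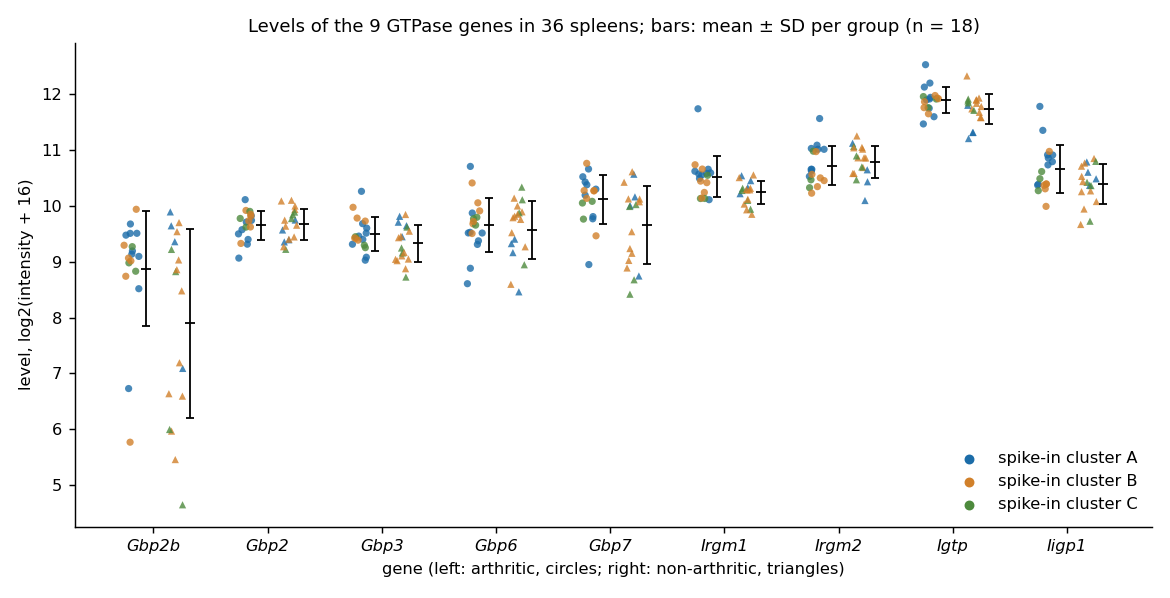
Level of each gene, as log2(intensity + 16), by its representing probe set in 18 arthritic (circles) and 18 non-arthritic (triangles) spleens, coloured by spike-in cluster, with black bars at the mean ± SD. The Gbp2b points leave a gap between 7.19 and 8.48, every gene's groups overlap, and heights are not comparable between genes.

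Among the Irg regulators, Irgm1, whose loss in mice impairs resistance to bacteria and parasites, ran from 10.11 over 10.55 to 11.74 in arthritic and from 9.85 over 10.29 to 10.55 in non-arthritic mice. The difference was 0.28 (SE 0.10, limma p = 0.00685, adjusted p = 0.165). The median of non-arthritic mice was exceeded by 13 of the 18 arthritic ones. The groups overlapped, with the highest arthritic value in ART3, and without ART3 the difference was 0.21 (limma adjusted p = 0.223). Within clusters A, B and C it was 0.27, 0.22 and 0.11, positive in each.

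Igtp ran from 11.46 over 11.91 to 12.53 in arthritic and from 11.20 over 11.79 to 12.32 in non-arthritic mice. Its difference was 0.16 (SE 0.08, limma p = 0.0573, adjusted p = 0.332). Irgm2 ran from 10.23 over 10.64 to 11.56 and from 10.10 over 10.86 to 11.25, a difference of -0.07 (SE 0.10, limma adjusted p = 0.785). Without ART3 the difference was 0.125 for Igtp (limma p = 0.114) and -0.12 for Irgm2. ART3 lies in cluster A and had the highest value of both genes. The cluster values and the test between clusters that follow include it and were not run without it. Igtp stood at 0.53 in cluster A, 0.03 in B and 0.04 in C. Irgm2 was higher in arthritic mice in A (0.33) and lower in B (-0.37) and C (-0.19). The test of whether the group difference varies between clusters gave p = 0.0172 for Igtp (limma adjusted p = 0.200) and p = 0.0113 for Irgm2 (limma adjusted p = 0.169). It called 0 of the 13 member probe sets, where 10 of all (0.037%) were called and 16.7% had an unadjusted p under 0.05.

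The effector Iigp1 was read by 2 probe sets that correlated at r = 0.72. Its representing probe set ran from 9.99 over 10.55 to 11.78 in arthritic and from 9.67 over 10.43 to 10.85 in non-arthritic mice, a difference of 0.27 (SE 0.13, limma p = 0.0392, adjusted p = 0.291). Within clusters A, B and C this was 0.34, 0.05 and 0.13, and with the cluster as a block 0.17 (limma p = 0.177). ART3 had its highest value, and without ART3 the difference was 0.20 (limma p = 0.0808). The second probe set ran from 8.89 over 9.49 to 10.30 and from 8.42 over 9.11 to 9.79, and 15 of the 18 arthritic values exceeded the median of the other group. That difference of 0.35 (SE 0.12, limma p = 0.00555) had the lowest adjusted p of the members, 0.153. It was positive in each cluster (0.41, 0.34 and 0.08 for A, B and C) and missed the threshold.

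Among the Gbp genes, Gbp2b ran from 5.77 over 9.11 to 9.94 in arthritic and from 4.65 over 8.65 to 9.89 in non-arthritic mice. The groups overlapped over nearly their whole range, and the difference of 0.98 (SE 0.44, limma p = 0.0304, adjusted p = 0.266) goes with the count of low-set mice, 2 against 8. Within cluster A, where 2 mice were low, it was -0.01, and it was 0.89 in B and 1.85 in C. The representing probe set of Gbp7 ran from 8.95 over 10.23 to 10.76 and from 8.42 over 9.995 to 10.61, a difference of 0.46 (SE 0.18, limma p = 0.0165, adjusted p = 0.216). Its second probe set gave 0.04 (SE 0.23, limma adjusted p = 0.947), and it gave 0.18 without ART14 (limma adjusted p = 0.648) and 0.025 without ART3. Within clusters A, B and C the representing probe set of Gbp7 stood at 0.24, 0.48 and 0.69, and the second at -0.22, -0.40 and 0.83.

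Gbp2, which in mouse cells is recruited to the vacuole of Toxoplasma, gave the smallest difference of the 9 genes. It ran from 9.06 over 9.72 to 10.11 in arthritic and from 9.22 over 9.70 to 10.10 in non-arthritic mice, a difference of -0.01 (SE 0.09, limma adjusted p = 0.955), or -0.04 without ART3. Its second probe set gave -0.21 (SE 0.13, limma adjusted p = 0.426). Gbp3 ran from 9.03 over 9.44 to 10.26 and from 8.72 over 9.34 to 9.84, a difference of 0.17 (SE 0.10, limma adjusted p = 0.407). Within clusters A, B and C the difference of Gbp3 was -0.17, 0.37 and 0.14. Gbp6 ran from 8.61 over 9.67 to 10.70 and from 8.46 over 9.77 to 10.33, a difference of 0.09 (SE 0.16, limma adjusted p = 0.822). It was 0.025 without ART3 and 0.015 without the 3 spleens that carried pancreas markers. The second probe set of Gbp6 gave 0.22 (SE 0.14, limma adjusted p = 0.444), and over all mice the pair correlated at r = 0.46. For Gbp2, Gbp3 and Gbp6 the groups overlapped over most of their range and the differences were no larger than the spread between mice.

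**Figure D3:**
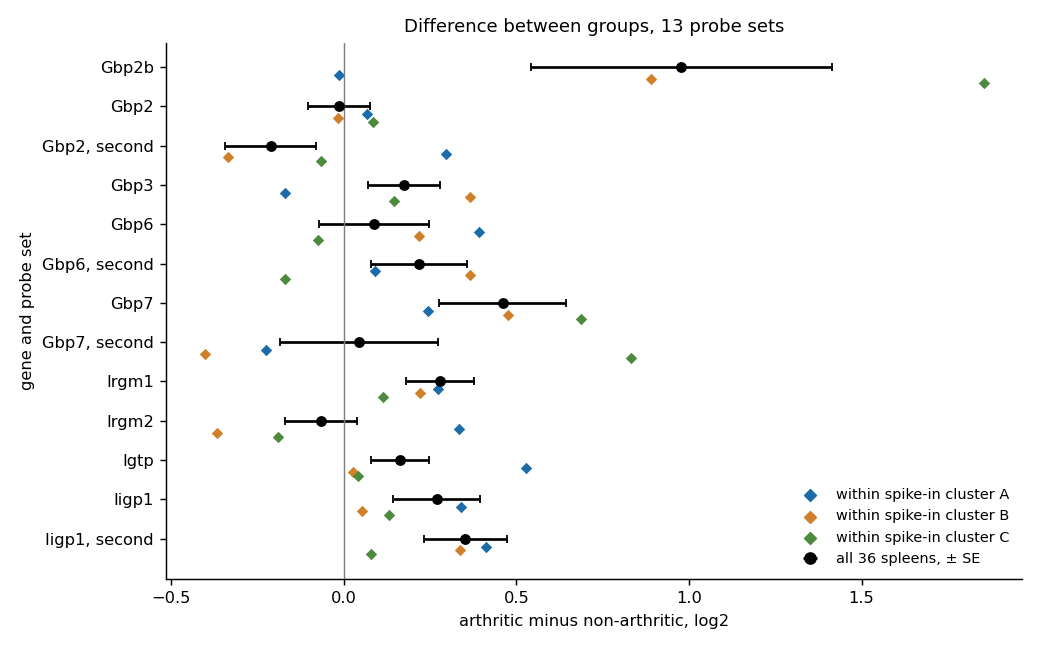
Arthritic minus non-arthritic difference on the log2 scale (x axis) for each of the 13 member probe sets (y axis), with black points and bars for all 36 spleens ± SE and coloured diamonds for the difference within each spike-in cluster. Black points lie between -0.21 and 0.98, and the diamonds of Gbp2b spread from -0.01 in cluster A to 1.85 in C.

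The sign of the difference was positive for 7 of 9 genes within each of the clusters A, B and C, though not for the same genes. Of all genes 43.7%, 54% and 51.4% were above 0. The members below 0 were Gbp2b and Gbp3 in A, Gbp2 and Irgm2 in B, and Gbp6 and Irgm2 in C. The median member difference was 0.27, 0.22 and 0.11 in the same order. With the cluster as a block, 8 of 9 were above 0, against 49.1% of genes, with a median of 0.20. The members were proposed with their group levels known, the clusters divide the same mice, and some members vary together. These counts are therefore a description, and nothing more is read from them. Without the 3 spleens that carried pancreas markers, 0 of the 13 probe sets were called, with a lowest limma adjusted p of 0.109 (second probe set of Iigp1).

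The study looked for subpopulations of arthritic mice, so the spread of each member was compared between the groups as well, as the mean absolute deviation from the group median. By that measure 10 of 13 member probe sets were less spread in arthritic mice, against 42.9% of all probe sets. Of the 13, 0 were called, as 0 of all 27022 (0%) were. The largest difference was that of Gbp2b, -0.87 (SE 0.33, limma p = 0.00993, adjusted p = 0.487). It goes with the split of Gbp2b, where 2 of 18 arthritic and 8 of 18 non-arthritic mice were low. That split was known when the members were chosen, so the p is given as a description. Gbp2b was the 1 member probe set of 13 with an unadjusted p under 0.05, a share of 7.66% over all probe sets. Irgm1 (0.07, SE 0.06), Irgm2 (0.05, SE 0.07) and the representing probe set of Iigp1 (0.06, SE 0.09) were the 3 with more spread in arthritic mice, with limma adjusted p of 0.842, 0.914 and 0.904.

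Over the 36 mice the members other than Gbp2b tended to vary together, though weakly. Their 28 pairs had a median Pearson r of 0.27, from -0.14 to 0.71, with 25 above 0, where all pairs of tested genes had a median of 0.0043 and 50.6% above 0. The closest pairs were Gbp2 with Gbp6 (0.71), Irgm1 with Gbp3 (0.67) and Irgm1 with Iigp1 (0.63), none of which lie on the same chromosome. Irgm2 and Igtp, the regulators that are neighbours on chromosome 11, stood at 0.46. Irgm2 went least with the Gbp genes, with r from -0.14 to 0.05 for the 4 other than Gbp2b.

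Arthritic mice alone gave a median of 0.39 over the 28 pairs, and non-arthritic mice 0.09. Without ART3 the arthritic median was 0.13, and the difference between the groups was not tested. In arthritic mice Igtp correlated with Gbp7 at 0.67 and with Iigp1 at 0.64, and in non-arthritic mice at -0.15 and -0.25. Without ART3 the arthritic values were 0.75 for Gbp7 and 0.37 for Iigp1. By spike-in cluster A, B and C the median was 0.55, 0.06 and 0.28, and with group and cluster taken out it was 0.28. Some pairs were positive in all 3 clusters, such as Gbp2 with Gbp6 (0.84, 0.45 and 0.81), Gbp2 with Iigp1 (0.84, 0.67 and 0.87) and Irgm1 with Gbp3 (0.60, 0.72 and 0.54). Cluster A holds ART3, and C has only 7 mice. Without ART3 these 3 pairs stood at 0.67, 0.42 and 0.55 over all mice. Over arthritic mice they went from 0.80 to 0.74, from 0.41 to 0.17 and from 0.62 to 0.22. Other pairs changed sign between clusters, such as Gbp6 with Igtp (0.53, -0.64 and -0.07).

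Much of the common variation sat in 1 spleen. ART3 had the highest level of 7 of the 9 genes and of 9 of the 13 probe sets, and the mean of the 8 centred genes other than Gbp2b was 0.88 there, against 0.27 in ART9, the next. The lowest mean was -0.44 in NON12. Without ART3 the median of the 28 pairs was 0.14, and without ART3 and NON12, the mice farthest from the median, it was 0.11. Over arthritic mice the mean ran from -0.29 over 0.06 to 0.88 and over non-arthritic mice from -0.44 over -0.08 to 0.18. The Gapdh ratio of ART3 was 0.745 and its median intensity 132.6, both within the range of the other arrays.

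**Figure D4:**
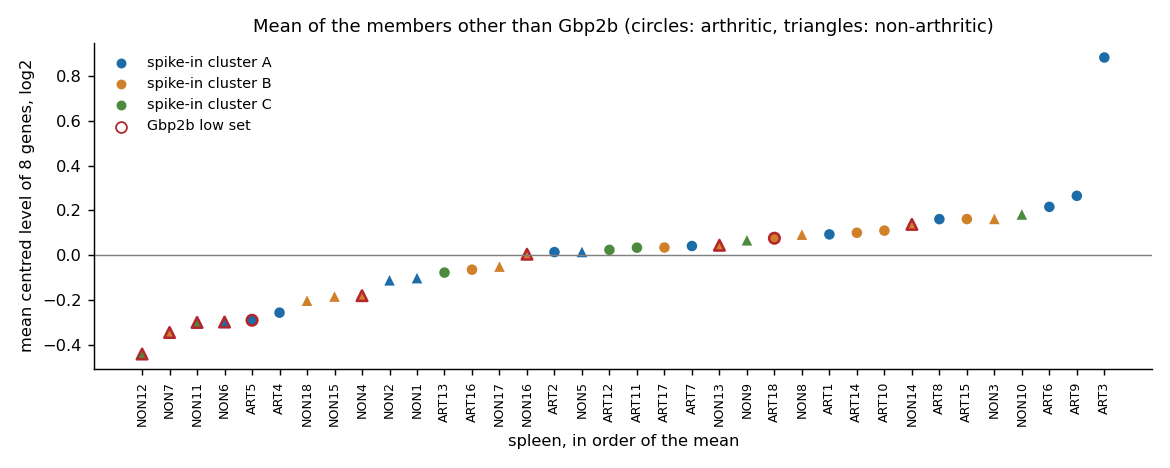
Mean of the centred log2 levels of the 8 members other than Gbp2b (y axis) in each spleen, sorted from lowest to highest (x axis), with circles for arthritic and triangles for non-arthritic mice, colours for spike-in clusters and red outlines for the Gbp2b low set. ART3 at 0.88 stands above the rest, which lie between -0.44 and 0.27.

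**Figure D5:**
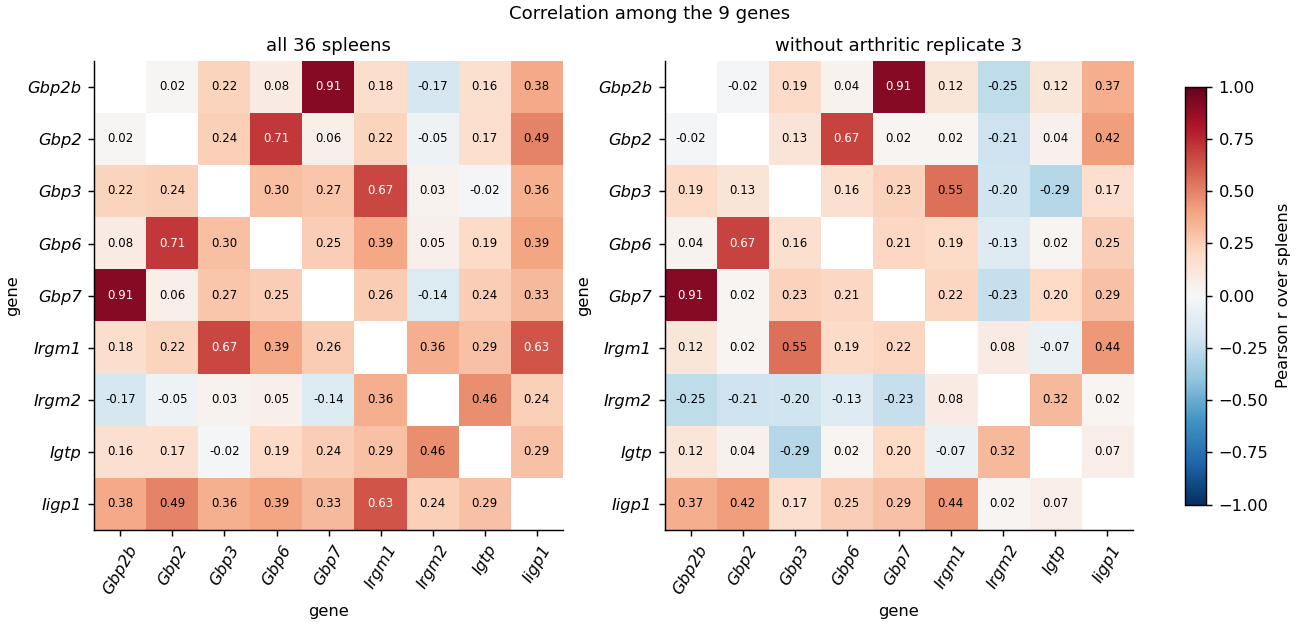
Pearson r between the levels of the 9 genes, over all 36 spleens (left) and without ART3, which is arthritic replicate 3 (right), coloured from -1 (blue) to 1 (red). The Gbp2b with Gbp7 pair stands at 0.91 in both, and most other values are lower on the right.

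The genes whose levels went most with the mean of the 8 members were Phf11d (r = 0.80), a gene with a PHD finger, Parp14 (0.77), an ADP-ribosyltransferase gene, Trim30a (0.72), which encodes a TRIM family protein, Ms4a4c (0.70), a gene of a membrane protein family, and Nmi (0.70), whose product interacts with Stat proteins. Without ART3 and NON12 these stood at 0.65, 0.55, 0.56, 0.60 and 0.61 in the same order. None was called between the groups, with limma adjusted p from 0.244 for Parp14 to 0.349 for Trim30a. They lie on chromosomes 14, 16, 7, 19 and 2, where no member lies.

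The wider pathway was described through 8 lists with 90 listed genes, of which 64 were tested. Of these 0 were called higher and 0 lower in arthritic mice, where 0.0481% of all 27022 probe sets were called. A difference above 0 was found in 52, or 50 with the cluster as a block, against 49.4% and 49.1% of all 12427 genes. The lists were chosen with earlier results of these data known. The counts of list genes here and below are therefore a description, to be set beside those shares. Among the other interferon-inducible GTPases, Gbp8 averaged 10.72 (SD 0.42) over the 18 arthritic and 10.18 (SD 0.40) over the 18 non-arthritic spleens. The difference was 0.54 (SE 0.13, limma adjusted p = 0.0857). Mx1, the antiviral GTPase, differed by 0.44 (SE 0.17, limma adjusted p = 0.197), and Ifi47, a further Irg gene, by 0.12 (SE 0.07, limma adjusted p = 0.430).

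Upstream, 4 of 4 tested genes of the interferon gamma ligand and receptor list were above 0, with a median of 0.06, and the receptor chain Ifngr2 differed by 0.19 (SE 0.10, limma adjusted p = 0.335). Of the transcription factors and brakes 8 of 11 were above 0, with a median of 0.23. With the cluster as a block 11 of 11 were above 0, with a median of 0.19. Stat2 differed by 0.48 (SE 0.13, limma adjusted p = 0.0952), Irf9, its partner, by 0.23 (SE 0.09, limma adjusted p = 0.212) and Irf7, the factor that amplifies type I interferon, by 0.44 (SE 0.20, limma adjusted p = 0.272). With the cluster as a block these were 0.28 for Stat2, 0.19 for Irf9 and 0.26 for Irf7. All 3 tested genes of the type I ligand and receptor list were above 0, with Ifnar1 at 0.17 (SE 0.08, limma adjusted p = 0.326). The cluster block gave 0.086 for Ifnar1, a median of 0.02 for its list and 3 of 4 above 0, with a median of 0.10, for the interferon gamma list.

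Among targets, 10 of 13 other interferon gamma targets were above 0, with a median of 0.06, and the chemokine gene Cxcl9 differed by 0.51 (SE 0.15, limma adjusted p = 0.101). Of the type I targets 13 of 14 were above 0, with a median of 0.24. Xaf1, whose product is linked to cell death, differed by 1.02 (SE 0.28, limma adjusted p = 0.0931), and Rtp4 by 0.46 (SE 0.19, limma adjusted p = 0.236). The ubiquitin-like conjugation genes, which in mouse cells help to bring Irg and Gbp proteins to vacuoles, had 6 of 9 above 0 and a median of 0.02, with Atg3 at 0.21 (SE 0.06, limma adjusted p = 0.0959). Inflammasome genes had 5 of 6 above 0 and a median of 0.11, with Casp1 at 0.18 (SE 0.08, limma adjusted p = 0.241). With the cluster as a block the median was 0.26 for the other GTPases, with Gbp8 at 0.36, 0.08 for other interferon gamma targets, 0.16 for type I targets and 0.10 for inflammasome genes. The ubiquitin-like conjugation genes turned, with 3 of 9 above 0 and a median of -0.014.

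The mean level of the transcription factor list correlated with the mean of the 8 members at r = 0.78 over mice (0.67 without ART3 and NON12), that of the other GTPases at 0.65 (0.44), of other interferon gamma targets at 0.54 (0.55) and of type I targets at 0.49 (0.23). The lists of the interferon gamma ligand and receptor, of ubiquitin-like conjugation and of the inflammasome stood at 0.09, 0.01 and 0.04, and at 0.04, -0.20 and 0.06 without ART3 and NON12. ART3 had the highest summed intensity of the other GTPases, the transcription factors, the type I targets and the ubiquitin-like conjugation genes, and ranked 23 of 36 for the other interferon gamma targets.

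Markers of the cell types that a spleen can hold were set beside these values through 11 lists. Of their 54 genes 44 were tested and 0 called, where 0.0481% of all probe sets were. Their mean levels correlated with the mean of the 8 members at r between -0.23 for erythroid cells and 0.32 for plasma cells. Without ART3 and NON12 the range was -0.37 for erythroid cells to 0.39 for T cells, which had stood at 0.15, and stroma went from -0.18 to 0.13. Stroma markers were below 0 in 4 of 4 genes, with a median of -0.41, and their summed level ran from 12.7 over 13.3 to 14.1 in arthritic and from 12.9 over 13.8 to 14.4 in non-arthritic mice. T cell markers were below 0 in 4 of 5 genes, with a median of -0.12, monocyte markers above 0 in 3 of 4 (median 0.15) and NK cell markers above 0 in 4 of 4 (median 0.09). With the cluster as a block the NK cell markers were below 0 in 4 of 4 (median -0.13) and the T cell markers above 0 in 3 of 5 (median 0.03), so both lists turned. Red pulp macrophage markers turned as well, from a median of 0.08 to -0.12, as did the 2 tested pancreas markers, from 0.02 to -0.53. Stroma markers stayed below 0 in 4 of 4 (median -0.25) and monocyte markers above 0 in 3 of 4 (median 0.12). ART3 ranked 33 of 36 in the summed T cell level, 35 for stroma, 5 for monocytes and 9 for NK cells. The part of these shifts in the members' levels was not tested.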

How the data were processed

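Sample titles gave group and replicate number, and every array is 1 spleen. The series text states a number of animals other than the sum of its group sizes, so the 36 labelled arrays were taken as 36 mice. The deposited values are linear array intensity, for which the submitters' processing notes name MAS5 without a version. The trimmed mean of each array was 500.0 with 2% taken off each end. RNA was isolated with Trizol and labelled with biotin, per the labels.

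Levels are log2(value + 16) with no further normalization, a scale that understates the change of dim probe sets. Control probe sets (64) and those with a mean below the 40th percentile (log2 6.49) were left out. Genes were named from the platform annotation, with 34945 probe sets naming 1 gene (34741 matched to GRCm38.p6 by identifier) and 932 several. Of several probe sets, that of highest mean level represents the gene. Groups, spread (mean absolute deviation from the group median) and the interaction of group and spike-in cluster were tested with limma 3.58.1 in R 4.3.3 (lmFit, eBayes with trend, two-sided, Benjamini-Hochberg over 27022 probe sets, threshold 0.05). Spike-in clusters are 3 Ward clusters of 18 hybridisation controls, centred per array. On simulated arrays the group test recovered 60 of 100 probe sets changed by 0.5 and 93 of 100 changed by 1. Other steps used scipy 1.17.1, pandas 2.3.3, numpy 2.4.6 and matplotlib 3.10.9 under Python 3.11.15.

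The members, lists, settings and rules were chosen with earlier results of these data known. Named beside the members are the 5 genes most like the mean of the other 8, the 3 highest and 3 lowest by r with Gbp2b, up to 3 per pathway list by unadjusted p, and neighbours of the Gbp genes. The cut for pancreas markers was 3 scaled MADs above the median.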

Additional observations from a re-analysis of the deposited data

How the results depend on the processing

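Of 195 values of the 13 member probe sets under 15 other settings, 179 kept their direction, 0 passed the threshold (lowest limma adjusted p 0.0834) and 16 changed sign. The differences that turned were Gbp2 (-0.01) to 0.032 with the spike-in cluster as a block, 0.025 with the Gapdh ratio as a covariate, 0.066 within cluster A, 0.084 within C and 0.022 by the Wilcoxon test's medians, the second probe set of Gbp2 to 0.29 within A, Gbp2b to -0.014 and Gbp3 to -0.17 within A, Gbp6 to -0.077 within C and -0.11 by the Wilcoxon test's medians, the second probe set of Gbp6 to -0.17 within C, the second probe set of Gbp7 to -0.085 with the cluster block, -0.11 with the Gapdh ratio, -0.22 within A and -0.40 within B, and Irgm2 to 0.33 within A. The cause was not tested. The count of all probe sets called between the groups, 13, was 1 after quantile normalization, 0 with no filter, 0 with no trend, 0 with the cluster block, 2 with the Gapdh ratio, 0 within A, 738 within B, 0 within C and 236 without the arrays that carried pancreas markers, and between 0 and 1 when ART3 or ART14 was left out. Members called stayed at 0 in each of these. Without a trend the spread test called 14 and the interaction 0 (10 otherwise), and a gap of at least 1 called 33 probe sets with high and low sets (76 otherwise), Gbp2b among them in each setting. The median r of the 28 pairs stayed between 0.26 and 0.28 under other pseudocounts, quantile normalization and removal of group and cluster, and was 0.14 without ART3, a setting added after the values were seen, as were leaving out ART14 and the cluster block for the lists.

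Arthritic and non-arthritic mice share replicate numbers, and whether the numbers pair them is not known here. After the group means were taken out, same-numbered arrays correlated between -0.23 and 0.47, and 11 of 18 pairs were over 0.1. Of the 18 arthritic arrays, 2 were most like the non-arthritic array of their own number. With the replicate block 369 probe sets were called, against 13 without it, and 0 of the members. Whether the numbers carry shared variation was not tested. No array exceeded the actin limit of 3, so that setting was not run. Probe sets of 1 gene correlated at r = 0.41 for Gbp7, 0.46 for Gbp6, 0.57 for Gbp2 and 0.72 for Iigp1, and 1 array per mouse leaves technical and animal spread in a single error.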
